A study of Homo sapiens with 12 samples.

Results

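ROS1, PTN, LRRK2 and ZNF385B are 4 genes whose probe sets stood far apart in level between the SCGB3A2+ and SCGB3A2- cells sorted at day 36. They were selected on the measured difference of those day 36 sorts. Each has 1 probe set, named by its gene number, so the account covers 4 of the 23786 probe sets measured. RUES2, a single human embryonic stem cell line, was turned into lung progenitors by way of endoderm and foregut stages, and its RNA was hybridised to 12 Affymetrix arrays. The groups were day 0 (replicates A and C), day 15 CD47hi (B and C, sorted for high CD47), day 22 (A and C, with no sort named), day 36 SCGB3A2+ (A, B and C) and day 36 SCGB3A2- (A, B and C). Cells beyond the CD47 sort were grown in low-Wnt medium, which favours airway epithelium, and no transgene or drug is named for any group. Nothing in the labels says that the replicates came from separate cultures, so the p-values below cover only how far these arrays differ, and part of that may be technical.

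ROS1 is a receptor tyrosine kinase best known for the gene fusions that activate it in lung adenocarcinoma; NELL2 is a ligand for it in the mouse epididymis. PTN, pleiotrophin, is a secreted heparin-binding growth factor that, with its relative midkine (MDK), binds the receptor phosphatases PTPRZ1 and PTPRS and the syndecan and glypican co-receptors. LRRK2 is a large kinase, mutated in inherited Parkinson disease, that phosphorylates Rab GTPases of vesicle traffic and is also present in the alveolar type 2 cell, where it is linked to the surfactant-storing lamellar bodies. ZNF385B is a zinc finger protein related to ZNF385A, which binds p53 and alters its choice of target genes. SCGB3A2, the gene of the sort, encodes a small secretory protein of the airway.

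The 250 bases before the RefSeq start of each gene are printed here because the 4 genes share one pattern at day 36 and their promoters can be compared directly for shared letters. They are RefSeq sequence on build GRCh38.p14, read 5′ to 3′ on the strand of the gene, with CG dinucleotides in capitals. ROS1 lies at chr6:117425943-117426192 on the minus strand, PTN at chr7:137343734-137343983 on the minus strand, LRRK2 at chr12:40224747-40224996 on the plus strand and ZNF385B at chr2:179861613-179861862 on the minus strand.
ROS1: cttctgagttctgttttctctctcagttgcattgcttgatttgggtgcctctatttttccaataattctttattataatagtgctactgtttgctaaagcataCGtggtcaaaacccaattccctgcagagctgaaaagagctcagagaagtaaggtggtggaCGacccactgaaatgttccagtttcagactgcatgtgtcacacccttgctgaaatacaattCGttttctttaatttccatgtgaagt
PTN: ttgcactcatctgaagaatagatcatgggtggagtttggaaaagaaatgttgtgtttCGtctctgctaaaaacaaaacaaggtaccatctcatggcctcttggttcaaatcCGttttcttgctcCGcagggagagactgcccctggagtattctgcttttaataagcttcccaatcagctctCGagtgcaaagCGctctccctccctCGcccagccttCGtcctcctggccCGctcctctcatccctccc
LRRK2: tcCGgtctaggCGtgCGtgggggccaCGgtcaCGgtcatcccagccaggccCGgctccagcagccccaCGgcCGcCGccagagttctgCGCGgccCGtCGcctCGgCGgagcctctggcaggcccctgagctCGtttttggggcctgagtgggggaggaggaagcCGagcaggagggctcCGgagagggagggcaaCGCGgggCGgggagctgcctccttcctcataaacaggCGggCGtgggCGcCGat
ZNF385B: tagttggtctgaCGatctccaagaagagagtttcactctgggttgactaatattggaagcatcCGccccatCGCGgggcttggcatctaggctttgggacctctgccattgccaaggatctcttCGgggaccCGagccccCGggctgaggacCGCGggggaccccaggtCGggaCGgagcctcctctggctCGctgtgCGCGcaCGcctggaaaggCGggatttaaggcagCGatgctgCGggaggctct

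The promoters had different base composition. ROS1 was 40% G or C with 3 CG dinucleotides and PTN was 50.4% with 8, while ZNF385B was 62.4% with 18 and LRRK2 was 72.8% with 25. Over all 35114 promoter windows of 27303 genes the median was 58% with 11 CG dinucleotides, so 2 of the 4 lay below it and 2 above. The letters CTTGAG and CAAGTG, which resemble the core bound by the lung transcription factor NKX2-1, and TGTTTAC and TATTTAC, which resemble the core bound by FOXA factors, were searched on both strands from 250 bases before to 50 after each start. None of these letters was found in the printed windows of the 4 genes. Among all windows, CTTGAG was present in 12.4%, CAAGTG in 11.5%, TGTTTAC in 3.42% and TATTTAC in 2.67%. ZNF385B has 5 windows in the table, and CAAGTG was present in one of its other windows.

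All values that follow are RMA levels on a log2 scale, where a difference of 1 is a 2-fold change. They are not compared in height between genes, because each probe set has its own response. RNA here is a bulk sample, and fewer cells of a type and less RNA per cell cannot be told apart. The sort labels were checked on SCGB3A2 itself. Its level was 9.04, 9.39 and 8.89 in SCGB3A2+ cells, against 2.19, 2.70 and 2.06 in SCGB3A2- cells. Before the sorts its probe set stood higher at day 0 (7.24 and 7.05) than at day 22 (6.01 and 5.57). At day 15 its mean was 1.73. The level of SCGB3A2 was thus not confined to the late cells, and the source of the day 0 level was not tested.

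**Figure D1:**
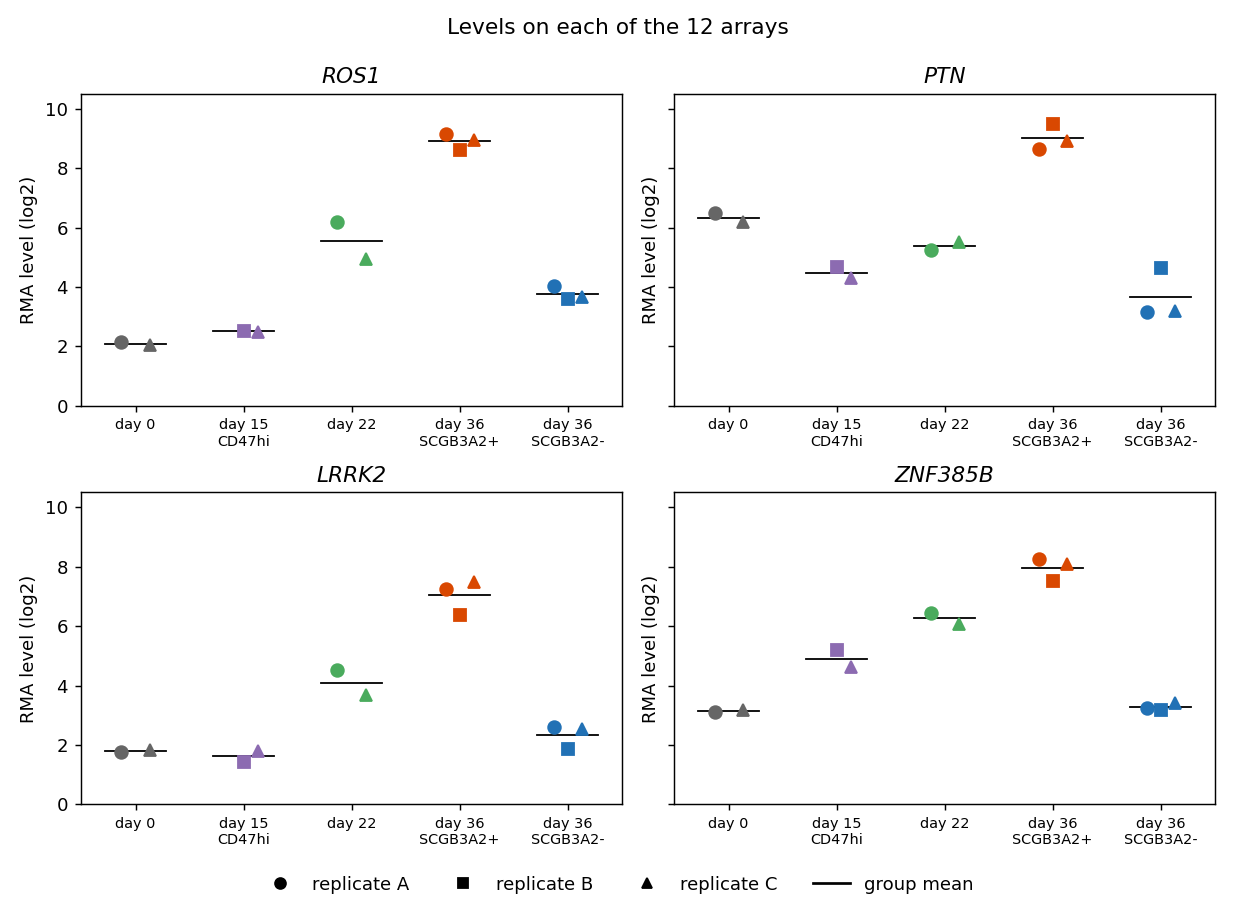
RMA level (log2, vertical axis) of ROS1, PTN, LRRK2 and ZNF385B on each of the 12 arrays, by group along the horizontal axis, with replicate A as circles, B as squares, C as triangles and the group mean as a bar. In each panel the 3 SCGB3A2+ arrays sit above every other array.

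ROS1 was barely above its lowest level until after day 15. Its level was 2.15 and 2.04 at day 0, 2.53 and 2.49 at day 15, and 6.19 and 4.93 at day 22. At day 36 it was 9.17, 8.63 and 8.94 in SCGB3A2+ cells, against 4.03, 3.61 and 3.67 in SCGB3A2- cells. No 2 groups overlapped, but day 15 stood only 0.35 above day 0 at the nearest arrays. The share of all probe sets with no overlap between any groups was not counted. The order was SCGB3A2+ (8.91 ± 0.27, SD, n = 3), day 22 (5.56 ± 0.89, n = 2), SCGB3A2- (3.77 ± 0.22, n = 3), day 15 (2.51 ± 0.02, n = 2) and day 0 (2.09 ± 0.08, n = 2). The 2 day 22 arrays differed by 1.26, A above C, the widest gap in any day 0 to day 22 pair of these 4 genes.

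PTN, the growth factor, was the one gene of the 4 that stood higher at day 0 than at day 15 and day 22 on every array. It was at 6.50 and 6.18 at day 0, 4.66 and 4.30 at day 15, and 5.26 and 5.52 at day 22. SCGB3A2+ cells had 8.65, 9.49 and 8.91, against 3.16, 4.63 and 3.18 in SCGB3A2- cells. The order was SCGB3A2+ (9.01 ± 0.43, SD, n = 3), day 0 (6.34 ± 0.22, n = 2), day 22 (5.39 ± 0.19, n = 2), day 15 (4.48 ± 0.26, n = 2) and SCGB3A2- (3.66 ± 0.84, n = 3). Day 15 and SCGB3A2- arrays overlapped, because replicate B of the SCGB3A2- cells lay within the day 15 range.

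LRRK2 was near the bottom of its range at both early times. Its level was 1.76 and 1.83 at day 0, 1.42 and 1.81 at day 15, and 4.51 and 3.69 at day 22. It reached 7.25, 6.37 and 7.49 in SCGB3A2+ cells, against 2.62, 1.85 and 2.54 in SCGB3A2- cells. The order was SCGB3A2+ (7.03 ± 0.59, SD, n = 3), day 22 (4.10 ± 0.58, n = 2), SCGB3A2- (2.34 ± 0.42, n = 3), day 0 (1.79 ± 0.05, n = 2) and day 15 (1.62 ± 0.27, n = 2). Day 0 and day 15 overlapped, and the lowest SCGB3A2- array lay only 0.02 above the highest day 0 array, so these 3 groups did not separate beyond their spread.

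ZNF385B, the zinc finger gene, stood higher at each of the first 3 times than at the one before. It was at 3.11 and 3.17 at day 0, 5.20 and 4.61 at day 15, and 6.44 and 6.09 at day 22. SCGB3A2+ cells had 8.24, 7.53 and 8.08, against 3.25, 3.19 and 3.41 in SCGB3A2- cells. The order was SCGB3A2+ (7.95 ± 0.37, SD, n = 3), day 22 (6.26 ± 0.25, n = 2), day 15 (4.91 ± 0.42, n = 2), SCGB3A2- (3.28 ± 0.12, n = 3) and day 0 (3.14 ± 0.04, n = 2). The last 2 groups were 0.02 apart at their nearest arrays, which is less than their spread.

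The difference between the sorts chose these genes and is given as a description with no test. Pairing by replicate letter was not established, so each SD here covers same-letter differences only. For ROS1 it was smaller than the SD within SCGB3A2+ (0.27) and SCGB3A2- (0.22) cells. By replicate letter, SCGB3A2+ minus SCGB3A2- was 5.14, 5.02 and 5.27 for ROS1, a mean of 5.14 ± 0.13 (SD over 3 letters), or 35.3-fold. For PTN it was 5.49, 4.86 and 5.72, a mean of 5.36 ± 0.45, or 41.0-fold. LRRK2 differed by 4.63, 4.52 and 4.95, a mean of 4.70 ± 0.22, or 26.0-fold. In ZNF385B the differences were 4.99, 4.34 and 4.67, a mean of 4.67 ± 0.32, or 25.4-fold. Among 23786 probe sets ordered by increase, PTN was number 3, ROS1 number 4, LRRK2 number 9 and ZNF385B number 10. SCGB3A2 (6.79) and SCGB1A1 (6.04) were ahead of them, and CYBRD1, SFTPA1, SFTA3 and AQP4 lay between ROS1 and LRRK2. The arrays of the sorts did not overlap for any of the 4, with SCGB3A2+ higher, as was so for 18.7% of all probe sets, and 10.1% of all probe sets were higher at an adjusted p under 0.05.

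**Figure D2:**
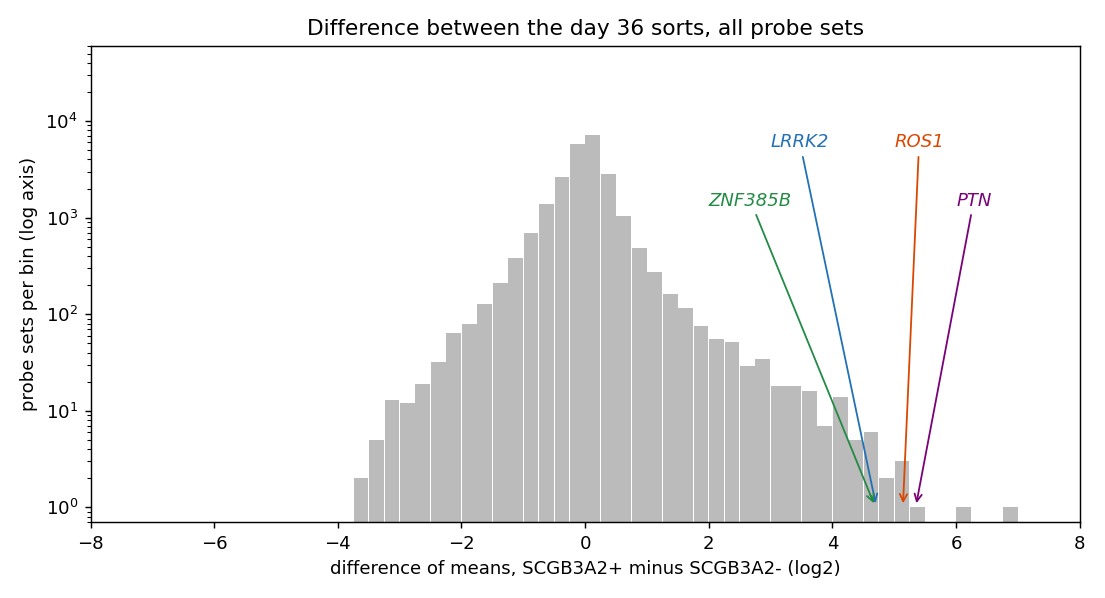
Number of probe sets (vertical, log axis) by difference of means between the day 36 sorts, SCGB3A2+ minus SCGB3A2- (horizontal, log2, bins of 0.25), over all 23786 probe sets, with arrows at the 4 genes. ROS1, PTN, LRRK2 and ZNF385B lie between 4.67 and 5.36, far to the right of the 95th percentile of 0.83.

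Within the sorts the 4 genes did not vary alike between replicates. PTN was highest on replicate B in both sorts, by 0.71 over the mean of A and C in SCGB3A2+ cells and by 1.46 in SCGB3A2- cells. The other 3 were lowest on B in both sorts. B minus the mean of A and C was -0.63 in SCGB3A2+ and -0.14 in SCGB3A2- cells for ZNF385B, and -0.43 in SCGB3A2+ and -0.24 in SCGB3A2- cells for ROS1. For LRRK2 it was -0.73 in SCGB3A2- cells, and in SCGB3A2+ cells B was at 6.37, against 7.25 and 7.49 on A and C. The alveolar type 2 marker list was lowest on B too, at 7.57 in SCGB3A2+ cells, against 8.02 and 7.88 on A and C, and at 5.17 in SCGB3A2- cells, against 5.43 and 5.30. Ciliated markers were highest on B in SCGB3A2+ cells, at 4.46, against 3.57 and 3.63, and so were neuroendocrine markers, at 4.09, against 3.12 and 3.24. Neither list was highest on B in SCGB3A2- cells. There ciliated markers were at 2.87, against 2.96 and 2.85 on A and C, and neuroendocrine markers at 3.58, against 3.25 and 3.60. The part of these marker lists in the replicate differences was not tested.

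Day 22 cells lay between the sorts for all 4 genes, with no overlap on either side, which held for 3.48% of all probe sets. SCGB3A2+ cells were above day 22 by 3.35 for ROS1 (10.2-fold), 3.62 for PTN (12.3-fold), 2.93 for LRRK2 (7.64-fold) and 1.69 for ZNF385B (3.22-fold). SCGB3A2- cells were below day 22, with differences of -1.79, -1.73 and -1.76 for ROS1, PTN and LRRK2 and -2.98 for ZNF385B. ZNF385B thus stood nearer to the SCGB3A2+ level at day 22, while the other 3 stood nearer to the SCGB3A2- level. These values share arrays with the contrast that chose the genes, so none is tested. No sort is named for day 22, so time and sort cannot be told apart in these differences.

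The comparisons along the time course used none of the day 36 difference. Between day 0 and day 15 ZNF385B rose and PTN fell. The day 15 cells had been sorted on CD47 and no sort is named for day 0, so time and sort cannot be told apart. ZNF385B was 4.91 ± 0.42 at day 15 and 3.14 ± 0.04 at day 0 (SD, n = 2 each), a difference of 1.77 ± 0.25 (SE) with a limma adjusted p of 0.000203. PTN was 4.48 ± 0.26 and 6.34 ± 0.22, a difference of -1.86 ± 0.43 with an adjusted p of 0.0057. ROS1 differed by 0.42 ± 0.33 (adjusted p = 0.386) and LRRK2 by -0.18 ± 0.38 (adjusted p = 0.781). So 1 of the 4 was called higher, where 16.2% of all probe sets were, and 1 lower, where 15.3% were (31.5% in either direction).

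The week from day 15 to day 22 brought 3 of the 4 genes up, where 8.95% of all probe sets were called higher and 19.5% in either direction. ROS1 rose by 3.05 ± 0.33 (SE), or 8.29-fold, with a limma adjusted p of 5.87e-05. LRRK2 rose by 2.48 ± 0.38, or 5.59-fold (adjusted p = 0.000769), and ZNF385B by 1.36 ± 0.25, or 2.56-fold (adjusted p = 0.00245). The call for each of these 3 held when any single array was left out, with adjusted p up to 0.00101, 0.0106 and 0.0323. PTN differed by 0.91 ± 0.43, adjusted p = 0.182; it passed at 0.0337 without SCGB3A2- replicate B and at 0.0275 with only the arrays compared. With the replicate letter as a block the PTN difference was 1.39, with an adjusted p of 0.00852. In this step the day 15 cells had been sorted on CD47 and no sort is named for day 22, so time and sort cannot be told apart.

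Over both steps together, day 22 against day 0, ROS1 rose by 3.47 ± 0.33 (limma adjusted p = 6.36e-06), ZNF385B by 3.12 ± 0.25 (1.79e-06) and LRRK2 by 2.31 ± 0.38 (0.000458), or 3 of 4 called higher and none lower. Of all probe sets 17.3% were called higher and 19% lower, 36.3% in all. PTN was lower at day 22 by -0.95 ± 0.43 without passing, at an adjusted p of 0.111. Without SCGB3A2- replicate B that p was 0.0145, with only the arrays compared 0.0188 and with the replicate block 0.0154, all at the same difference of -0.95.

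Whether the day 36 cells as a whole departed from day 22 was asked with the equally weighted mean of the sorts, a contrast at right angles to the one that chose the genes. None of the 4 passed, where 6.68% of all probe sets did, although 3 of them had an unadjusted p under 0.05. ROS1 differed by 0.78 ± 0.27 (SE, limma adjusted p = 0.111), PTN by 0.95 ± 0.35 (0.142), LRRK2 by 0.59 ± 0.31 (0.321) and ZNF385B by -0.65 ± 0.20 (0.0853). ROS1 passed without day 22 replicate A, at 1.41 with an adjusted p of 0.00841, and with the replicate block, at 0.88 with 0.046. LRRK2 did not pass without day 22 replicate A, at 1.00, or without day 22 replicate C, at 0.17 (adjusted p = 0.197 and 0.927). The equal weighting is not the share of the cells that each sort took, which is not given in the sources used here.

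**Figure D3:**
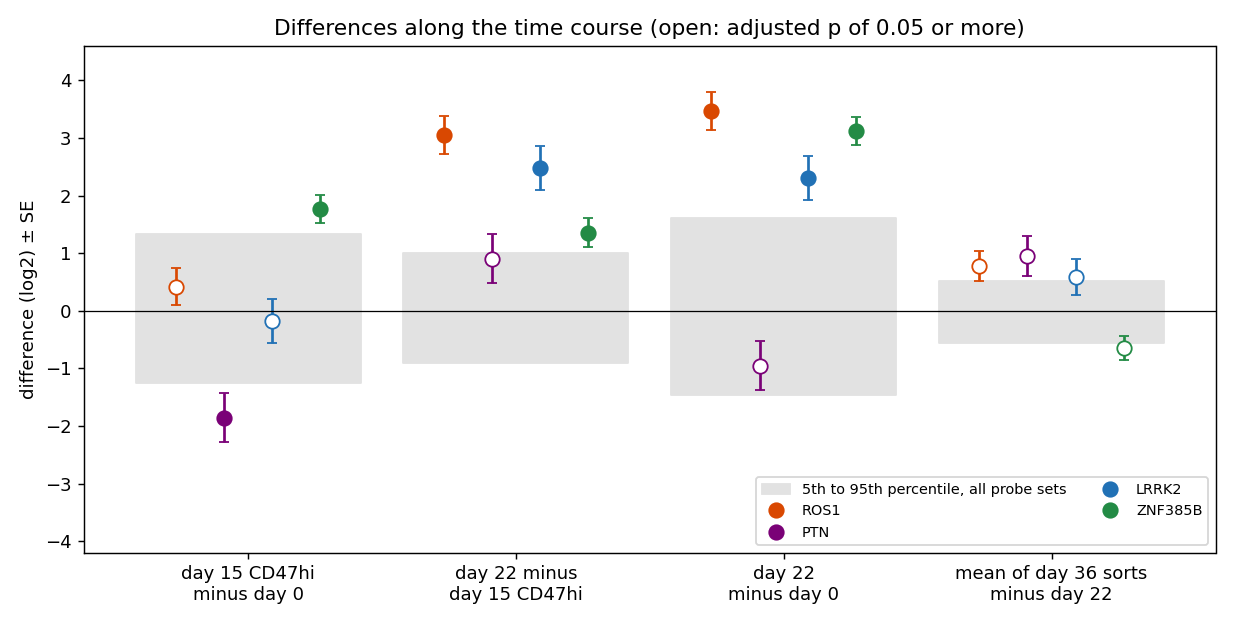
Differences (log2, vertical axis, bars ± SE) of ROS1, PTN, LRRK2 and ZNF385B in the 4 comparisons along the time course (horizontal axis), filled where the adjusted p is under 0.05, over grey bands from the 5th to the 95th percentile of all probe sets. Between day 15 and day 22 ROS1, LRRK2 and ZNF385B lie above the band's upper edge of 0.995, and no gene is filled in the comparison of the day 36 mean with day 22.

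Alveolar type 2 cell markers also differed between the day 36 sorts and between day 22 and day 15. Of 16 measured, 13 were called higher in SCGB3A2+ than in SCGB3A2- cells and 2 (ETV5 and WIF1) lower, with a median difference of 2.79, against 22.9% of all probe sets called in either direction and a median of 0.02. CXCL17, a chemokine of mucosal epithelium, differed by 4.32 ± 0.19 (SE, limma adjusted p = 1.74e-07), and SFTPB, the gene of surfactant protein B, by 2.29 ± 0.12 (5.24e-07). At day 22 against day 15 again 13 of the 16 were called higher and none lower, with a median difference of 2.88. At that step 8.95% of all probe sets were called higher, and PTN did not pass. The mean level of the list ranged over 3.60 to 3.67 at day 0, 3.24 to 3.50 at day 15, 6.27 to 6.89 at day 22, 7.57 to 8.02 in SCGB3A2+ and 5.17 to 5.43 in SCGB3A2- cells. NKX2-1, the transcription factor that marks lung progenitors, was at 7.63 ± 0.06 in SCGB3A2+ cells, against 4.13 ± 0.32 in SCGB3A2- cells (SD, n = 3 each). It was at 2.97 ± 0.52 at day 0 and already at 6.78 ± 0.07 at day 15 (n = 2 each). By day 15 ZNF385B had risen too, while ROS1 and LRRK2 were not yet up and PTN had fallen.

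Markers of other cell types also moved. In the sorts 10.1% of all probe sets were called higher in SCGB3A2+ than in SCGB3A2- cells and 12.8% lower. Of 12 ciliated markers 8 were higher in SCGB3A2+ than in SCGB3A2- cells, among them DNAH5, a dynein of motile cilia (1.93 ± 0.19, SE, limma adjusted p = 2.61e-05), and the array means of the list ranged over 3.57 to 4.46, against 2.85 to 2.96. Of 16 secretory airway markers 7 were higher, one of them SCGB3A2, on which the cells were sorted. The other 15, a list set after seeing the data, ranged over 5.33 to 5.36 in SCGB3A2+ cells and 4.08 to 4.16 in SCGB3A2- cells, with 6 called higher. Liver markers were present at high level in both sorts, at 8.22 to 8.59 in SCGB3A2+ and 8.98 to 9.66 in SCGB3A2- cells, with 7 of 13 called lower and 1 higher, FGG, a fibrinogen chain. All 13 liver and 12 of 15 gut and stomach markers were called higher at day 22 than at day 15, the step at which ROS1, LRRK2 and ZNF385B rose. At that step 8.95% of all probe sets were called higher. Mesenchymal markers (3.53 to 3.60 against 3.32 to 3.56) and neural markers (2.74 to 3.06 against 2.63 to 2.76) stayed low in both sorts. Calls went both ways, with 1 of 14 mesenchymal markers higher and 1 lower, and 2 of 10 neural markers higher and 2 lower. Among those called higher were LUM, an extracellular matrix proteoglycan gene, by 3.04 ± 0.34 (adjusted p = 7.63e-05), and MAP2, a neuronal microtubule protein gene, by 1.34 ± 0.18 (0.000264). LUM and MAP2 were picked after their values were seen, and the genes called lower are not named here. The median difference was -0.13 for mesenchymal and 0.09 for neural markers, against 0.015 for all probe sets. The part of these cell types in the levels of the 4 genes was not tested.

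Few genes on a list of ROS1 partners and kinase relatives were called in the sorts. Of 12 genes holding its ligand, phosphatases, signalling partners and kinase relatives, 1 was called higher and 1 lower in SCGB3A2+ than in SCGB3A2- cells, with a median difference of 0.16. Over all probe sets 22.9% were called in either direction, so the count does not set the list apart. Some of the 12, such as INSR, ALK and LTK, are relatives of ROS1 rather than genes that act with it. INSR, the insulin receptor, was lower by -0.96 ± 0.13 (SE, limma adjusted p = 0.000269), and GOPC, a Golgi scaffold and neighbour of ROS1 that also forms fusions with it, was higher by 0.62 ± 0.12 (0.0026). The ligand gene NELL2 was at 3.82 ± 0.87 in SCGB3A2+ cells, against 2.81 ± 0.21 in SCGB3A2- cells (SD, n = 3 each), a difference that missed the threshold at an adjusted p of 0.0504 and passed under 6 of the alternative settings, at 0.00475 without SCGB3A2+ replicate C. NELL2 was highest at day 0, fell by 3.75 ± 0.41 at day 15 (adjusted p = 3.34e-05) and was higher at day 22 than at day 15 by 1.76 ± 0.41 (0.0106). That last call was lost without day 15 replicate C (0.0962) or day 22 replicate C (0.0624). At day 22 against day 15, 2 of the 12 were called higher and 1 lower, VAV3, a guanine exchange factor, at -1.73 ± 0.23 (0.000314). At that step 19.5% of all probe sets were called in either direction.

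Of 7 measured genes that are fused to ROS1 in lung cancer, 4 were called higher in SCGB3A2+ than in SCGB3A2- cells and none lower by limma at the adjusted threshold. In that comparison 10.1% of all probe sets were called higher and 12.8% lower. SLC34A2, a phosphate transporter of alveolar type 2 cells, was higher by 2.78 ± 0.32 (SE, adjusted p = 9.98e-05). SDC4, a syndecan, was higher by 1.02 ± 0.13 (0.00015), and EZR, a linker of membrane and actin, by 0.72 ± 0.15 (0.00374); GOPC is given above. At day 22 against day 0, 6 of the 7 were higher and 1, CD74, the invariant chain of class II antigen presentation, was called lower at -1.36 ± 0.45 (0.0346), a call lost without day 0 replicate A (0.295) or day 22 replicate A (0.214), among other settings. Over all probe sets, 17.3% were called higher and 19% lower at day 22 against day 0. SLC34A2 is also on the alveolar type 2 list.

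PTN's relative, receptors and co-receptors were lower in SCGB3A2+ cells more often than higher. Of 17 genes, 2 were called higher and 7 lower than in SCGB3A2- cells, with a median difference of -0.27. Over all probe sets 10.1% were called higher and 12.8% lower, with a median difference of 0.015. The relative MDK was at 9.36 ± 0.35 in SCGB3A2+ cells, against 10.12 ± 0.15 in SCGB3A2- cells (SD, n = 3 each), lower by -0.76 ± 0.19 (SE, limma adjusted p = 0.0139), and the call was lost without SCGB3A2- replicate C (0.058) or SCGB3A2+ replicate A (0.0617). MDK and PTN also ran opposite at the first step: MDK rose by 2.27 ± 0.24 at day 15 against day 0 (2.1e-05), while PTN fell.

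Among the receptors of PTN, the phosphatase PTPRS was lower in SCGB3A2+ cells by -1.07 ± 0.16 (SE, limma adjusted p = 0.000453) and the scavenger receptor LRP1 by -0.91 ± 0.16 (0.00166). PTPRZ1, the receptor phosphatase held to be its main partner, was at 8.62 at day 0, 5.35 at day 15 and 1.91 at day 22, with 1.87 for the SCGB3A2+ and 1.74 for the SCGB3A2- sort. It fell by 3.27 ± 0.25 at day 15 against day 0 (2.11e-06) and by 3.45 ± 0.25 at day 22 against day 15 (3.33e-06). PTPRZ1 was thus low in the cells in which PTN was highest.

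The heparan sulfate co-receptors moved in both directions. GPC3, a glypican of fetal tissue, was lower in SCGB3A2+ than in SCGB3A2- cells by -1.63 ± 0.26 (SE, limma adjusted p = 0.000807), SDC3 by -1.33 ± 0.17 (0.000225) and SDC2 by -1.26 ± 0.24 (0.003). SDC4 (given above) and SDC1, at 0.54 ± 0.13 (0.0115), were the 2 called higher. At day 22 against day 15, SDC1 rose by 1.48 ± 0.16 (6.99e-05) and NRP1, a semaphorin and VEGF co-receptor, by 1.68 ± 0.18 (5.65e-05).

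The substrates and partners of LRRK2 showed no common direction in the sorts. Of 22 measured genes 4 were called higher and 3 lower in SCGB3A2+ than in SCGB3A2- cells, with a median difference of -0.04. Over all probe sets these shares were 10.1% and 12.8%. RAB3C and RAB3D, Rab GTPases of regulated secretion, were higher by 1.69 ± 0.39 (SE, limma adjusted p = 0.00773) and 0.57 ± 0.13 (0.0073), and RAB3B, of the same family, was lower by -0.98 ± 0.22 (0.00694). RAB12, a LRRK2 substrate, was higher by 0.62 ± 0.16 (0.0154), which was lost without SCGB3A2- replicate B (0.0646), SCGB3A2- replicate C (0.0721) or SCGB3A2+ replicate A (0.0637). LRRK1, the one close relative, was at 1.60 ± 0.12 in SCGB3A2+ cells and 1.67 ± 0.04 in SCGB3A2- cells (SD, n = 3 each), with a difference of -0.08 ± 0.19 (0.839), and its group means lay between 1.54 and 2.11 throughout.

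At day 15 against day 0, where LRRK2 itself did not pass, 12 of the 22 LRRK2 partners were called higher and 2 lower. That step also had many calls over all probe sets, with 16.2% higher and 15.3% lower. RAB32, a Rab that binds LRRK2, rose by 1.94 ± 0.15 (SE, limma adjusted p = 1.73e-06), VPS35, a retromer subunit whose gene is also mutated in Parkinson disease, by 1.20 ± 0.13 (2.68e-05) and RAB3D by 1.23 ± 0.16 (0.000108). At day 22 against day 15, when LRRK2 rose, 1 was higher and 4 were lower, near the 19.5% of all probe sets called in either direction. RAB3C was the one that rose, by 2.65 ± 0.47 (0.00207), and RAB38, a Rab of lysosome-related organelles, fell by 0.94 ± 0.16 (0.0018).

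**Figure D4:**
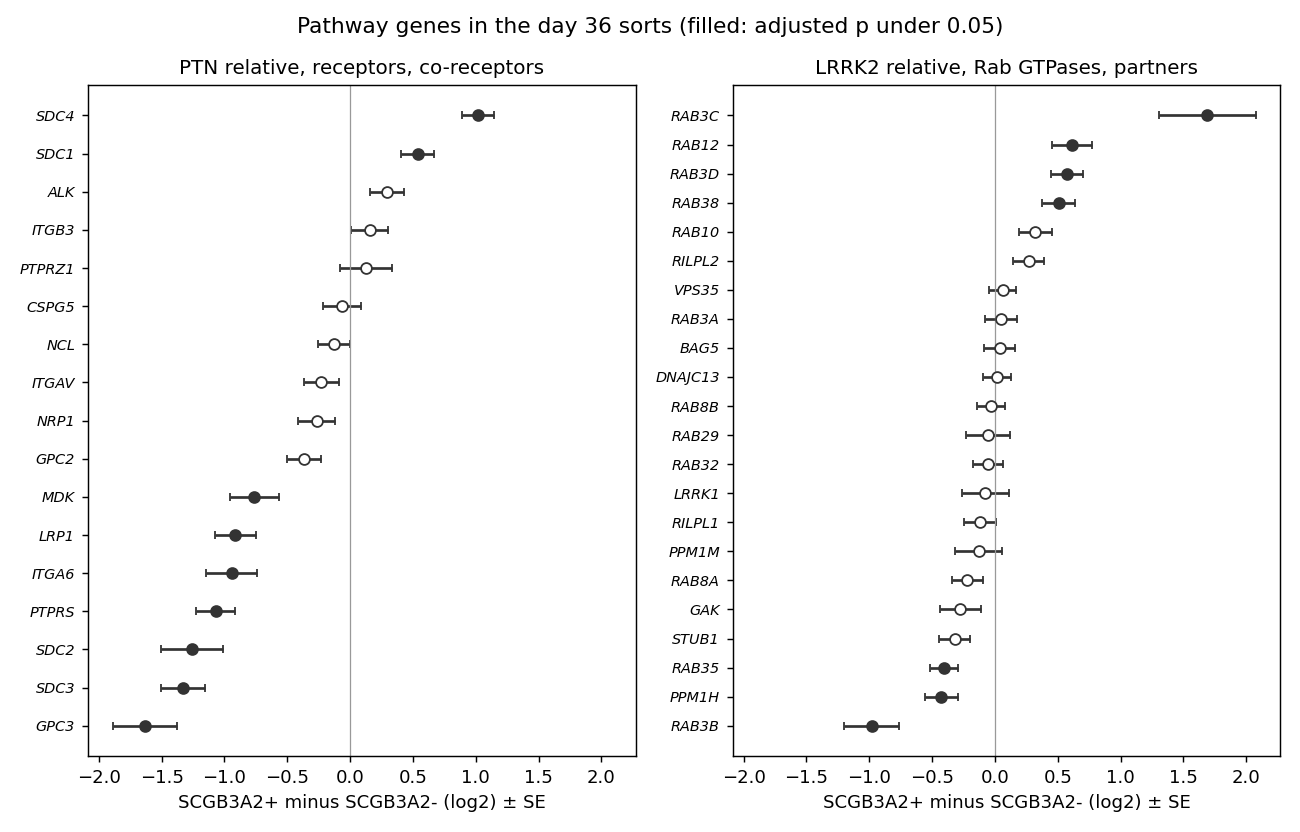
Difference between the sorts, SCGB3A2+ minus SCGB3A2- (log2, horizontal axis, bars ± SE), of the 17 genes of the PTN list (left) and the 22 measured genes of the LRRK2 list (right), filled where the adjusted p is under 0.05. On the left 7 genes are filled below 0 and 2 above it, and on the right 3 and 4.

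The other ZNF385 genes did not share the pattern of ZNF385B. ZNF385A was at 4.90 ± 0.33 in SCGB3A2+ cells, against 5.44 ± 0.19 in SCGB3A2- cells (SD, n = 3 each), with a difference of -0.54 ± 0.17 (SE, limma adjusted p = 0.0353) that failed with only the day 36 arrays (0.0739) and without SCGB3A2- replicate A (0.123) or B (0.111), among other settings. It rose with ZNF385B at day 15 against day 0, by 2.06 ± 0.20 (1.35e-05). ZNF385D fell at that step by 1.44 ± 0.25 (0.000906) and ZNF385C had group means between 2.53 and 2.95.

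Of 16 measured targets of p53, 6 were called lower in SCGB3A2+ than in SCGB3A2- cells by limma, none was called higher and 10 did not pass, with a median difference of -0.34. Of all probe sets, 12.8% were called lower in that comparison and 10.1% higher. SESN2, a stress-response gene, was lower by -1.23 ± 0.19 (SE, adjusted p = 0.000801), BAX, a promoter of apoptosis, by -0.92 ± 0.17 (0.00189), the death receptor gene TNFRSF10B by -0.72 ± 0.11 (0.000763) and MDM2, which degrades p53, by -0.50 ± 0.11 (0.00722). CDKN1A, the cell cycle inhibitor p21, was at 5.40 in SCGB3A2+ and 5.30 in SCGB3A2- cells, a difference of 0.10 ± 0.17 (0.758). Earlier, at day 22 against day 0, 10 of the 16 were higher and 1 lower, with CDKN1A up by 3.13 ± 0.21 (4.47e-07) and GDF15, a stress-induced growth factor gene, by 3.94 ± 0.22 (1.29e-07), in the same interval in which ZNF385B rose. In that interval 17.3% of all probe sets were called higher and 19% lower.

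Genes most like each of the 4 were found by the root mean square difference between the 5 group means, each gene centred on its own mean, over 5 groups and 12 arrays. The smaller the value, the more alike the pattern, and no p is attached. ROS1 was nearest to NAPSA, the gene of an aspartic protease that processes surfactant protein B (0.358, log2), then ACP3 (0.410), STEAP4 (0.486), TREM1 (0.497) and CSF3R (0.514). LRRK2 was nearest to STEAP4 (0.147), CYP4B1 (0.240), TREM1 (0.370), LMO3 (0.376) and ACP3 (0.421). ROS1 and LRRK2 thus had STEAP4, TREM1 and ACP3 in common. Measured over the 12 arrays, only STEAP4 of these stayed among the nearest 5 of both. TREM1 was then at place 9 for ROS1 and 17 for LRRK2, and ACP3 at place 2 for ROS1 and 6 for LRRK2.

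PTN's nearest genes lay farther off than those of the other 3. The nearest was CYBRD1 (0.609), an iron reductase gene, then PLAAT5 (0.693), ADGRG2 (0.706), ATP8A1 (0.820) and CD9 (0.832). ZNF385B was nearest to CYP1B1 (0.297), GEM (0.392), RP1 (0.478), MIR614 (0.506) and CD36 (0.548). Measured over the 12 arrays in place of the 5 group means, 3 of the 5 stayed among the nearest 5 for ROS1 and for LRRK2, and 4 of 5 for PTN and for ZNF385B.

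Between the 4 genes, ROS1 and LRRK2 were the most alike, at 0.545, with 7 other named genes nearer to ROS1 and 11 nearer to LRRK2. LRRK2 and ZNF385B stood at 0.899, ROS1 and ZNF385B at 1.19, PTN and LRRK2 at 1.22, PTN and ZNF385B at 1.43 and ROS1 and PTN at 1.71. PTN stood apart from the others at day 0.

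**Figure D5:**
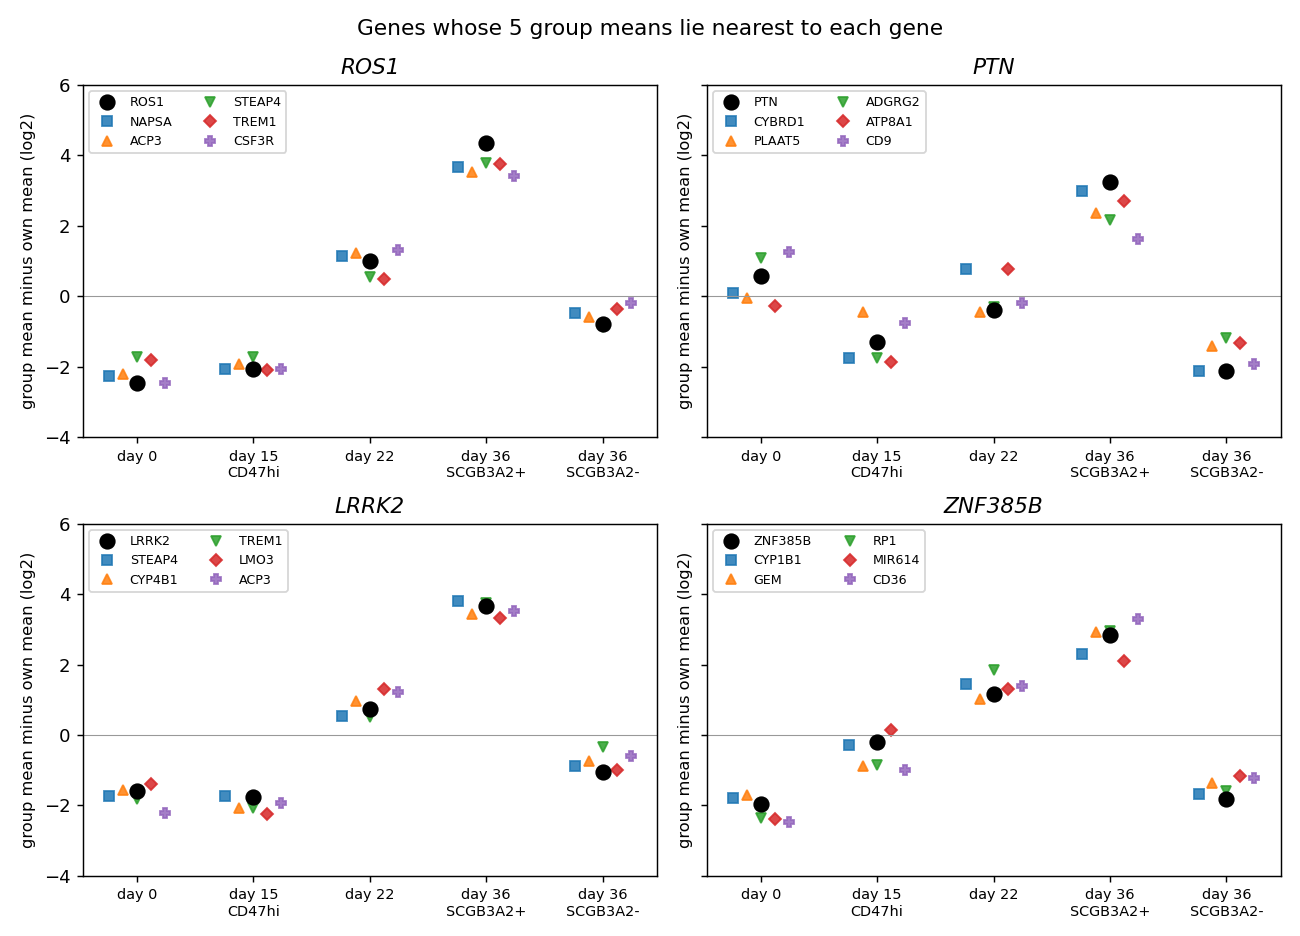
Group means minus the gene's own mean over 5 groups (log2, vertical axis) for ROS1, PTN, LRRK2 and ZNF385B (black) and the 5 named genes nearest to each (coloured), with the groups along the horizontal axis. In the ROS1 and LRRK2 panels the points lie close together in every group, and in the PTN panel they are more scattered.

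The nearest measured protein-coding genes on the chromosomes were looked up after the data had been seen. Beside LRRK2 on chromosome 12, SLC2A13 differed between SCGB3A2+ and SCGB3A2- cells by -0.34 ± 0.15 (SE, limma adjusted p = 0.145) and MUC19 by -0.02 ± 0.11 (0.935). SLC2A13, a sugar transporter gene, was higher at day 22 than at day 15 by 0.73 ± 0.18 (0.0153), the step at which LRRK2 rose. Beside PTN on chromosome 7, CHRM2 differed by 0.13 ± 0.13 (0.576) and DGKI by less than 0.01. DCBLD1, beside ROS1 on chromosome 6, was higher by 0.58 ± 0.17 (0.0256), and VGLL2 differed by 0.06 ± 0.14 (0.831). SESTD1, beside ZNF385B on chromosome 2, was higher by 0.95 ± 0.12 (0.000177), and CWC22 differed by 0.29 ± 0.13 (0.162). At day 22 against day 15 SESTD1 was lower by -0.48 ± 0.15 (0.0409), where ZNF385B rose, and none of the other 6 neighbours passed at that step.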

How the data were processed

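Total RNA of RUES2 cells was biotin-labelled by the WT Plus method (per the labels' protocols) and hybridised to 12 Affymetrix arrays. The values are log2 levels that the authors deposited after RMA with affy 1.36.1 in R 2.15.1, per the submitters' processing notes; background correction and quantile normalization belong to RMA and were kept. The array medians lay between 3.67 and 3.75, and the number of arrays limits the precision. Of 23786 probe sets, 22458 have 1 gene symbol and 1328 none in the platform annotation, which can be old. Arrays of a group correlated at 0.979 to 0.993 over all probe sets, with no identical pair.

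All 12 arrays and 5 groups were fitted together in R 4.3.3 by lmFit and eBayes of limma 3.58.1, with a residual df of 7. Tests were two-sided, p-values were adjusted by Benjamini-Hochberg across every probe set, and the threshold was 0.05. Fold changes are 2 to the power of the difference. The genes and lists were chosen with earlier results of these data known. Named beside the 4 genes are up to 4 list genes per pathway and comparison and up to 2 per cell type list, by smallest adjusted p, the 5 most alike genes, and fixed genes such as MDK and LRRK1; others, such as SDC2, SDC1, LUM and MAP2, and the chromosomal neighbours were picked after their values were seen. Of 232 list entries 215 were measured, 2 through an older symbol, and 17 were not analysed here. Deviations of same-letter arrays in the day 36 sorts correlated weakly, at 0.104, 0.124 and 0.111. Between day 22 and SCGB3A2- arrays they correlated at 0.126 (A) and 0.114 (C). Pairing by letter was thus not established, and the main fit did not use it. The fit was tested on simulated data, and alternatives were the samples fitted, variance model, array weights, a filter, the normalization, a replicate block and single arrays left out.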

Additional observations from a re-analysis of the deposited data

Results flagged for a closer look

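All 4 genes stood above day 22 on every SCGB3A2+ array and below it on every SCGB3A2- array, as did 3.48% of all probe sets. That pattern was not tested, because the genes were chosen on the difference between the sorts. No sort is named for day 22, so time and sort cannot be told apart. SCGB3A2+ minus day 22 was 3.35 for ROS1, 3.62 for PTN, 2.93 for LRRK2 and 1.69 for ZNF385B, and SCGB3A2- minus day 22 was -1.79, -1.73, -1.76 and -2.98 for the same genes.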

How the results depend on the processing

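The rises of ROS1, LRRK2 and ZNF385B at day 22 and the first-step changes of PTN and ZNF385B kept direction and call under all 7 other settings and with each of the 12 arrays left out, and the cause of the changes below was not tested. PTN at day 22 against day 15 passed at 0.91 with only the arrays compared and at 1.39 with the replicate block, and ranged over 0.73 to 1.09 with single arrays left out. PTN at day 22 against day 0 passed at -0.95 in both of those settings and ranged over -1.11 to -0.79. ROS1 in the mean of the sorts against day 22 passed at 0.88 with the replicate block and ranged over 0.15 to 1.41, and LRRK2 there ranged over 0.17 to 1.00 without passing. The replicate block changed no other call of the 4 genes. With single arrays left out, the probe sets called at day 22 against day 15 ranged over 1364 to 2398 higher (2129 with all) and 1426 to 2877 lower (2514 with all). Without day 15 replicate C the higher count was 1364, and the lower count was 1426, 1495 and 1536 without day 15 B, day 15 C and day 22 C. In the mean of the sorts against day 22 they ranged over 107 to 886 higher (696 with all) and 201 to 1071 lower (893 with all): without day 22 A 320 and 532, without day 22 C 107 and 201, and without SCGB3A2- B 445 higher. Among named genes and lists, 10045 alternatives gave the same call, 231 lost it, 111 gained it, 321 values moved and none reversed. Groups of 2 leave 1 array when the other is dropped, which is then assumed to vary like the other groups.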
